A study of Mus musculus with 7 samples.

Results

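The 34 genes described here encode the machinery that copies DNA during S phase, with the E2F factors and checkpoint proteins that act beside it. They were taken as a fixed list of names, drawn up with earlier results of these data known, and matched by symbol in the deposited tables. The list holds 34 of the 54532 genes in the tables, and all 34 passed the filter on low counts that left 17975 genes for testing. Gene expression was measured by RNA sequencing of polyadenylated RNA from fluorescence-sorted cells of the mouse olfactory epithelium. OMP-GFP mice gave the mature olfactory sensory neurons, sorted at postnatal days 2, 7 and 16 (P2, P7 and P16). Neurog1-GFP mice gave the intermediate progenitor cells, sorted at P3, P7, P9 and P16. Each age of each population is 1 library made from pooled cells, which gives 3 mature neuron libraries and 4 progenitor libraries. Each population comes from its own mouse line, and effects of line and population cannot be told apart. The labels name no separate animals within an age, so each p-value reflects only how much libraries of different ages vary.

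Replication is prepared in G1, when Cdc6 and Cdt1 load the Mcm2 to Mcm7 ring onto origins. In S phase Cdc45 and the GINS complex join the ring to form the active helicase, polymerases held by the clamp Pcna copy both strands, and thymidylate synthase and ribonucleotide reductase supply the nucleotides. Many of these genes are targets of E2F factors, which are held in check by the retinoblastoma family until a cell commits to divide. In the olfactory epithelium, neurons are produced after birth by dividing basal progenitors, and intermediate progenitors that express Neurog1 divide before their daughters become neurons. Mature olfactory sensory neurons have left the cell cycle.

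E2F sites are a well known regulatory sequence of this gene class, so the promoters were searched for 4 variants of the E2F core, TTTGGCGC, TTTCGCGC, TTTCCCGC and TTTGCCGC, on either strand, where matches may overlap each other. The window ran from 250 bases before to 50 bases after the RefSeq start of each gene (build GRCm38.p6). A promoter was matched for 29 of the 34 genes, and 12 of the 29 (41.4%) held at least 1 match, beside 704 of 27025 genes with a promoter in the table (2.61%). The 12 were Mcm3, Mcm5, Mcm6, Mcm7, Cdc6, Cdt1, Pola1, Rfc3, Lig1, Hells, Clspn and Dtl. The promoters of 4 genes are shown as examples: 3 genes that were lower in mature neurons, chosen because their windows hold matches, and the 1 that was higher. Of the 17 genes with a promoter and no match, 12 were lower too. Each run is the 160 bases before the start site, written 5′ to 3′ on the gene's strand, with every match in capitals. The Mcm6 run lies at chr1:128359706-128359865 on the minus strand and its window holds 3 matches, the Mcm5 run at chr8:75109349-75109508 on the plus strand with 2 matches, the Pola1 run at chrX:93632156-93632315 on the minus strand with 1 match, and the Chaf1a run at chr17:56040256-56040415 on the plus strand with 0 matches.
Mcm6: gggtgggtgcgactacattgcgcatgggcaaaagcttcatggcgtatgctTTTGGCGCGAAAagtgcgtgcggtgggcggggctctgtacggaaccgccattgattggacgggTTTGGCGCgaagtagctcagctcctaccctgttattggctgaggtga
Mcm5: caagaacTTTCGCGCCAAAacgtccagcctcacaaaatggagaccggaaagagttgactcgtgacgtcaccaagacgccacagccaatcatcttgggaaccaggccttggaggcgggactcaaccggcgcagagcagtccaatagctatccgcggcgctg
Pola1: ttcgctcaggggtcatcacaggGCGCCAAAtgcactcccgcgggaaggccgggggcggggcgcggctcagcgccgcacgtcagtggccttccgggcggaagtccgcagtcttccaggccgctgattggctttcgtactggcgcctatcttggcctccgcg
Chaf1a: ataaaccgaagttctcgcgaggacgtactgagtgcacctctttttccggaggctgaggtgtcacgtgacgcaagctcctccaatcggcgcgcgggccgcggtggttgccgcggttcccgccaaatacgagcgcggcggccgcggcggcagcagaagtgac
In Mcm6 and in Mcm5, 2 matches on opposite strands overlap each other. A match describes these letters in this window and does not show that a factor binds there.

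Depth was even, at 24203965 to 25930727 counts on genes per library, with 24494 to 26120 genes detected at 1 count or more. The labels were checked against markers of each population. Neurog1, the factor after which the progenitor line is named, lay between 292 and 698 TPM (a level scaled for transcript length to a fixed total per library) in progenitors and between 0.84 and 1.85 TPM in mature neurons. Mature neurons had lower levels of all 11 basal progenitor markers and higher levels of 11 of 12 markers of their own type. The exception was Omp, the gene after which the neuron line is named, which lay between 1323 and 2371 TPM in progenitors and between 1066 and 1630 TPM in mature neurons. The summed level of 8 immature neuron markers lay between 7382 and 9044 TPM in progenitors and between 1644 and 2342 TPM in mature neurons. In bulk RNA, fewer cells of a type and less RNA per cell cannot be told apart. The P3 progenitor library stood apart: it held the highest level, in CPM (counts scaled to library size), among progenitors for 31 of the 34 replication genes, beside 31.3% of all tested genes.

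Most replication genes were lower in mature neurons than in progenitors, and each of the 34 still had counts in every mature neuron library. Of the 34 genes, 26 were lower and 1, Chaf1a, was higher at an adjusted p under 0.05 (edgeR quasi-likelihood test, Benjamini-Hochberg adjustment over all tested genes), beside 30.0% of all tested genes lower and 28.8% higher. The other 7 did not pass the test. The median log2 fold of the 34 genes, mature neurons over progenitors, was -1.14, beside 0.01 for all tested genes. Added over the 34 genes, the level was 859, 684, 689 and 653 TPM in progenitors at P3, P7, P9 and P16, and 460, 403 and 333 TPM in neurons at P2, P7 and P16. The populations did not overlap in CPM for 27 genes that were lower in mature neurons and for Chaf1a, which was higher, beside 32.2% and 29.2% of all tested genes. Without the P3 progenitor library and the P16 mature neuron library, 25 genes were lower, 1 was higher and the median was -0.91. Of the genes called with all libraries, Mcm2, Mcm3, Mcm10, Lig1, Chaf1b and Dtl had log2 folds closer to 0 by over 1.5 times in that fit. Their folds there were -1.09, -1.11, -1.08, -0.55, -0.92 and -0.54.

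Other tests and scales gave the same numbers of calls. DESeq2 called 26 genes lower and 1 higher, beside 29.9% and 29.6% of the genes to which it gave an adjusted p. On log2(TPM + 1) and on log2(TPM + 0.1), limma also called 26 genes lower and 1 higher. Those scales moved the median of all tested genes from 0.01 to -0.09 and -0.12, and the share of called genes that were higher in mature neurons from 49.0% to 39.1% and 38.9%.

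**Figure D1:**
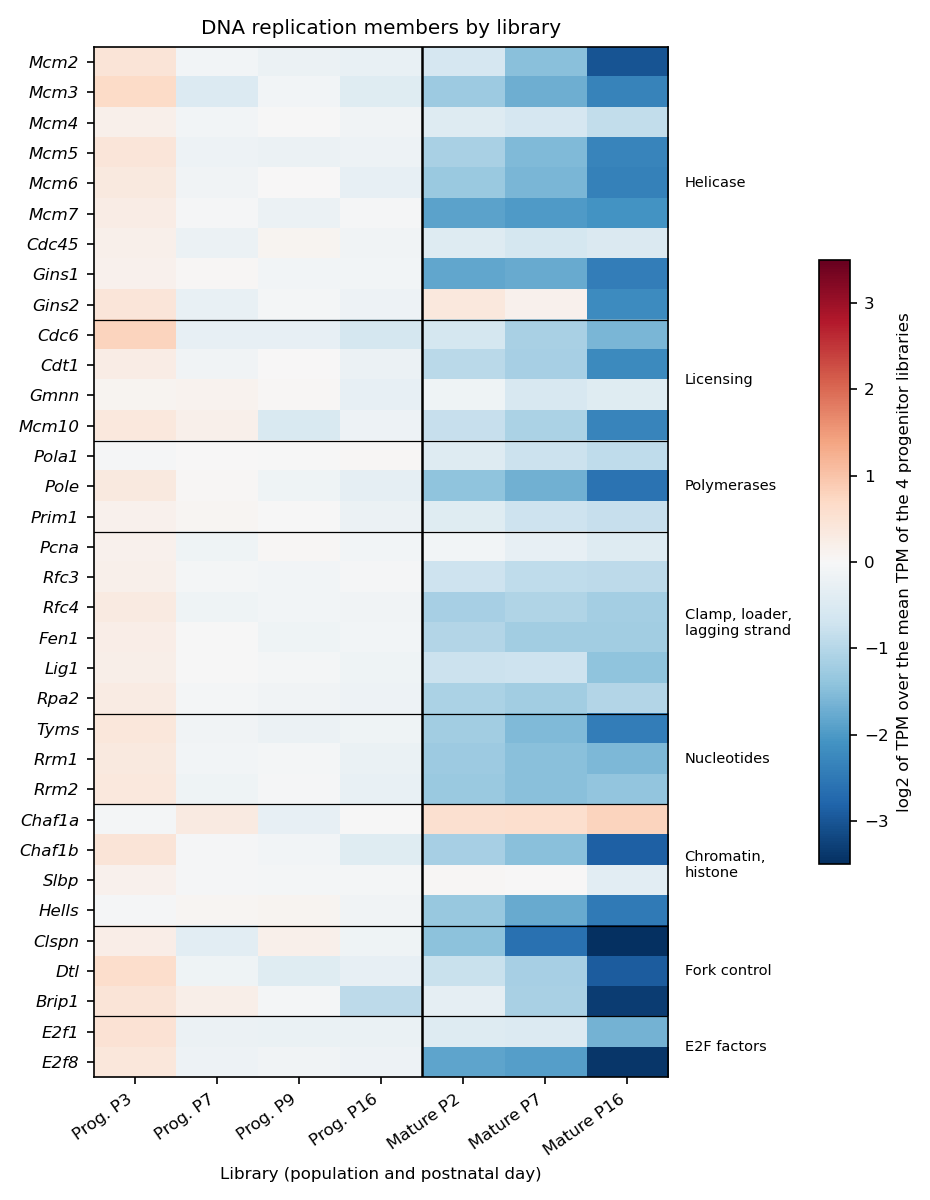
Level of each of the 34 replication genes (rows, grouped by role) in each of the 7 libraries (columns), as log2 of TPM over the mean TPM of the 4 progenitor libraries. The mature neuron columns are mostly blue and deepen toward P16, the P3 progenitor column is mostly red, and Chaf1a is the row that is red in all 3 mature neuron libraries.

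The replicative helicase was among the most reduced groups: 8 of its 9 genes were lower in mature neurons, with a median log2 fold of -1.58. Mcm7, a subunit of the ring (chr5:138164583-138172422, minus strand), lay at 74.7, 60.9, 54.7 and 60.4 TPM in progenitors at P3, P7, P9 and P16 and at 17.1, 15.7 and 14.8 TPM in neurons at P2, P7 and P16. The groups did not overlap, and the mature neuron libraries were nearly level with one another. Its log2 fold was -1.87 (SE 0.16, edgeR adjusted p = 3.86e-05), the largest of the group. Its exons overlap those of Ap4m1 and Cops6 on the opposite strand, and reads of these genes may be mixed where the counting did not use strand.

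Among the other ring subunits, Mcm2, Mcm3, Mcm5 and Mcm6 were lower by similar factors and had wider standard errors. Mcm2 lay at 30.3, 20.8, 19.5 and 18.4 TPM in progenitors at P3, P7, P9 and P16 and at 14.8, 8.07 and 2.76 TPM in neurons at P2, P7 and P16. In TPM the P2 neuron library came close to the progenitors, whereas the P16 library held 18.7% of the P2 level. The gap at P2 was wider in CPM, with 17.5 in P2 neurons against 30.3 in P16 progenitors, the lowest progenitor library. The fall with age in neurons was smaller in CPM, from 17.5 at P2 to 5.77 at P16. The log2 fold of Mcm2 was -1.63 (SE 0.36, edgeR adjusted p = 0.00463). Mcm3, Mcm5 and Mcm6, whose products sit in the same ring, had log2 folds of -1.73, -1.44 and -1.58, with mean levels in mature neurons of 3.46 ± 1.23, 5.89 ± 2.25 and 8.21 ± 2.87 TPM (SD, n = 3) against 11.3 ± 4.64, 17.6 ± 4.09 and 26.5 ± 5.10 TPM in progenitors (SD, n = 4). Mcm4 had the smallest fold of the 6 ring subunits, from 15.8 ± 1.56 TPM (SD, n = 4) to 10.3 ± 1.48 TPM (SD, n = 3), which passed the test at -0.51 on the log2 scale (SE 0.12, edgeR adjusted p = 0.00588). The Mcm5 and Mcm6 promoters are the ones printed above with paired matches.

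The genes whose products turn the ring into a working helicase differed in their folds. Cdc45 had the smallest called fold of the group: it lay at 16.3, 12.5, 15.5 and 13.3 TPM in progenitors and at 10.5, 9.38 and 10.1 TPM in mature neurons, in the same order of ages. The groups did not overlap, but the gap was small, and the log2 fold (-0.43, SE 0.15, edgeR adjusted p = 0.0399) lost its call in 7 of 15 alternative analyses, where the adjusted p reached 0.308 (log2 fold -0.25, P7 and P16 only with age as a block). The 2 GINS genes in the list differed in their values. Gins1 lay at 13.6, 12.7, 11.4 and 11.4 TPM in progenitors and at 3.45, 3.62 and 2.30 TPM in mature neurons (log2 fold -1.82, SE 0.22, edgeR adjusted p = 0.00019). Gins2 lay at 6.89, 4.36, 4.91 and 4.58 TPM in progenitors and at 6.65, 5.73 and 1.12 TPM in mature neurons. The P2 and P7 neuron libraries were inside the progenitor range and the P16 library was far below it, so the groups overlapped and the log2 fold (-0.22, SE 0.40, edgeR adjusted p = 0.661) was not called. Its fold ranged from -0.52 to 0.34 over the alternatives.

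Licensing factors split evenly, with 2 of 4 genes lower and a median log2 fold of -1.21. Cdt1, which loads the helicase together with Cdc6, lay at 9.02, 6.86, 7.63 and 6.52 TPM in progenitors and at 3.93, 3.37 and 1.60 TPM in mature neurons. The groups did not overlap, and the log2 fold was -1.53 (SE 0.23, edgeR adjusted p = 0.000687). Mcm10, which helps to activate the loaded helicase, lay at 5.36, 4.70, 2.88 and 3.66 TPM in progenitors and at 2.39, 1.91 and 0.84 TPM in mature neurons. Its log2 fold was -1.73 (SE 0.46, edgeR adjusted p = 0.011), the largest of the group. It was -0.95 on the log2(TPM + 1) scale and -1.30 on the log2(TPM + 0.1) scale.

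The 2 licensing genes that did not pass the test differ in level. Cdc6 lay at 3.92, 1.88, 1.86 and 1.49 TPM in progenitors and at 1.50, 1.04 and 0.75 TPM in mature neurons. The P3 progenitor library was above the rest, and the P2 neurons were level with the P16 progenitors (log2 fold -0.90, SE 0.44, edgeR adjusted p = 0.113). Its fold lay between -1.19 and -0.20 over the alternatives. Gmnn encodes geminin, which binds Cdt1 and blocks a repeat of licensing. It lay at 18.3, 18.6, 17.6 and 14.2 TPM in progenitors and at 15.4, 11.7 and 12.9 TPM in mature neurons (log2 fold -0.27, SE 0.17, edgeR adjusted p = 0.195). In every mature neuron library the level of geminin was above 11 TPM and that of Cdt1, its target, was below 4 TPM. The order was the same in every progenitor library, with 14.2 to 18.6 TPM for Gmnn and 6.52 to 9.02 TPM for Cdt1.

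All 3 polymerase genes in the list were lower in mature neurons, with a median log2 fold of -0.57. Pole, the catalytic subunit of the leading strand polymerase, lay at 10.9, 8.93, 7.82 and 7.03 TPM in progenitors and at 3.25, 2.71 and 1.46 TPM in mature neurons (log2 fold -1.41, SE 0.23, edgeR adjusted p = 0.000944). Pola1, the catalytic subunit of the polymerase that extends primers (chrX:93304767-93632155, minus strand), was flat in progenitors at 8.66, 8.99, 8.90 and 9.18 TPM and lay at 6.59, 5.32 and 4.78 TPM in mature neurons. Both genes had separate groups, but the gap of Pola1 was smaller (log2 fold -0.56, SE 0.09, edgeR adjusted p = 0.0012). The spread of Pola1 across the progenitor libraries, which differ in age, was the tightest of the list. Prim1, the primase subunit that makes the RNA primer, went from 28.1 ± 2.96 TPM (SD, n = 4) to 18.0 ± 2.63 TPM (SD, n = 3). This was called, at a log2 fold of -0.57 with SE 0.13 (edgeR adjusted p = 0.00473).

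Of the 6 clamp and lagging strand genes, 5 were lower, with a median log2 fold of -0.90. Rfc4 and Rfc3 are subunits of the loader that places Pcna on DNA. Rfc4 lay at 36.8, 27.1, 28.0 and 27.5 TPM in progenitors and at 13.4, 14.4 and 13.0 TPM in mature neurons (log2 fold -1.05, SE 0.13, edgeR adjusted p = 0.000266). Rfc3 lay at 36.9, 31.4, 30.5 and 32.0 TPM in progenitors and at 19.7, 17.7 and 17.2 TPM in mature neurons (log2 fold -0.77, SE 0.10, edgeR adjusted p = 0.000381). For both, the mature neuron libraries were close to one another and far below the progenitors. Fen1, the nuclease that trims lagging strand flaps, Lig1, the ligase that seals the fragments, and Rpa2, a subunit of the single-strand binding protein, had log2 folds of -1.02, -0.84 and -0.96. Their mean levels in mature neurons were 11.5 ± 0.87, 10.6 ± 2.63 and 9.42 ± 0.67 TPM (SD, n = 3).

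Pcna, the clamp itself and a common marker of proliferating cells, did not pass the test. It lay at 125, 100.5, 116 and 105.6 TPM in progenitors and at 105.6, 91.4 and 82.3 TPM in mature neurons. The P2 neuron library equalled the P16 progenitor library, the groups overlapped, and mature neurons held 83.2% of the mean progenitor level (log2 fold -0.15, SE 0.12, edgeR adjusted p = 0.314). Pcna was the highest of the 34 genes in TPM in both populations. Its fold ranged from -0.27 to 0.01 over the alternatives. Pcna and Tyms have named pseudogene copies in the annotation, so the counting could have split their reads, and their values are uncertain for that reason.

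**Figure D2:**
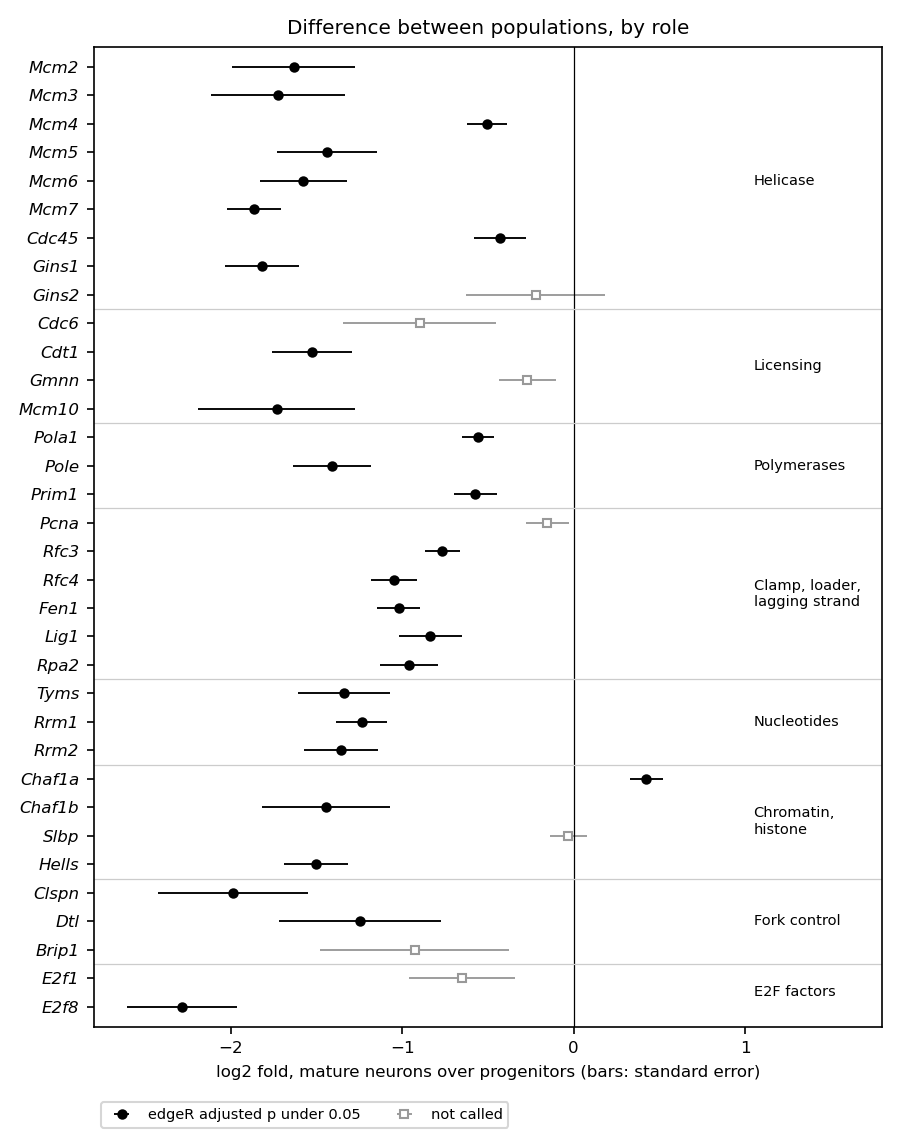
Difference between the populations for each of the 34 genes (rows, grouped by role), as log2 fold of mature neurons over progenitors with its standard error, from edgeR. Filled circles passed an adjusted p of 0.05 and open squares did not. Of the filled circles, 26 lie left of 0 and 1, Chaf1a, lies right of it.

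All 3 genes of deoxynucleotide supply were lower by similar amounts, with a median log2 fold of -1.34. Rrm1 and Rrm2 encode the large and the small subunit of ribonucleotide reductase. Rrm1 lay at 53.8, 39.7, 40.9 and 36.0 TPM in progenitors and at 17.5, 15.5 and 14.3 TPM in mature neurons (log2 fold -1.24, SE 0.15, edgeR adjusted p = 0.000194). Rrm2 lay at 18.5, 13.0, 14.0 and 11.9 TPM in progenitors and at 5.78, 5.22 and 5.46 TPM in mature neurons (log2 fold -1.36, SE 0.22, edgeR adjusted p = 0.000874). For both subunits the lowest progenitor library was far above the highest neuron library. Tyms, which makes thymidylate, lay at 28.7, 20.0, 19.0 and 19.5 TPM in progenitors and at 9.41, 7.52 and 4.09 TPM in mature neurons (log2 fold -1.34, SE 0.27, edgeR adjusted p = 0.00285).

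The chromatin and histone genes went in both directions: 2 were lower, 1 was higher and 1 did not pass the test. Chaf1a and Chaf1b encode 2 subunits of chromatin assembly factor 1, which deposits histones behind the fork. Chaf1a (chr17:56040439-56072289, plus strand) lay at 9.03, 11.6, 7.66 and 9.30 TPM in progenitors and at 13.8, 14.1 and 16.01 TPM in mature neurons. Every neuron library was above every progenitor library, the neuron mean was 156% of the progenitor mean, and the log2 fold in counts was 0.42 (SE 0.10, edgeR adjusted p = 0.00562). The call held in 15 of 15 alternatives, with folds from 0.37 to 0.65. The exons of Chaf1a overlap those of Ubxn6 on the opposite strand, and reads of Ubxn6 in its count cannot be told apart where the counting did not use strand. Its promoter, printed above, held none of the 4 exact variants. Other forms of the E2F site were not searched, so the absence of a site is not shown.

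The partner subunit Chaf1b was lower in mature neurons. It lay at 8.80, 6.24, 6.01 and 4.84 TPM in progenitors and at 2.90, 2.36 and 0.90 TPM in mature neurons (log2 fold -1.45, SE 0.38, edgeR adjusted p = 0.0103). Hells, a chromatin remodeller that supports DNA methylation of newly copied DNA, lay at 25.7, 27.6, 28.4 and 24.2 TPM in progenitors and at 10.6, 7.82 and 4.78 TPM in mature neurons. It was the most reduced gene of the group (log2 fold -1.50, SE 0.19, edgeR adjusted p = 0.000233) and 1 of 3 genes, with Pola1 and Chaf1a, whose P3 library was not the highest of the progenitors in CPM. Slbp, which binds the stem-loop of histone mRNAs, lay at 71.9, 62.5, 61.8 and 61.7 TPM in progenitors and at 66.9, 64.5 and 50.1 TPM in mature neurons. The groups overlapped, and the log2 fold was -0.03 (SE 0.11, edgeR adjusted p = 0.824). Over the alternatives it lay between -0.10 and 0.12.

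Fork control genes were low in both populations and lowest at P16 in neurons, with 2 of 3 lower and a median log2 fold of -1.25. Clspn encodes claspin, the adaptor of the replication checkpoint, and lay at 4.29, 2.80, 4.13 and 3.26 TPM in progenitors and at 1.34, 0.59 and 0.28 TPM in mature neurons. It fell to 20.3% of the mean progenitor level (log2 fold -1.99, SE 0.44, edgeR adjusted p = 0.00464). Dtl, the substrate receptor of a ligase that destroys Cdt1 on chromatin, lay at 6.66, 3.96, 3.25 and 3.56 TPM in progenitors and at 2.56, 1.94 and 0.58 TPM in mature neurons. Its call was close to the threshold (log2 fold -1.25, SE 0.47, edgeR adjusted p = 0.0488) and was lost in 6 of 15 alternatives, with an adjusted p of up to 0.118. Brip1, a helicase of the interstrand crosslink repair pathway, lay at 1.50, 1.27, 1.04 and 0.58 TPM in progenitors and at 0.88, 0.50 and 0.11 TPM in mature neurons. The groups overlapped and the log2 fold (-0.93, SE 0.55, edgeR adjusted p = 0.179) was not called. Alternatives gave it folds from -1.53 to -0.18.

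The 2 E2F factors in the list differed in their values. E2f8, a repressor that is itself induced in S phase (chr7:48866429-48881596, minus strand), lay at 5.96, 4.04, 4.15 and 3.97 TPM in progenitors and at 1.27, 1.18 and 0.43 TPM in mature neurons. It had the largest fold of the 34 genes (log2 fold -2.29, SE 0.32, edgeR adjusted p = 0.000463), which was -1.51 on log2(TPM + 1). E2f1, an activator, lay at 24.5, 14.8, 14.6 and 14.7 TPM in progenitors and at 12.6, 12.3 and 5.49 TPM in mature neurons. The P2 and P7 neuron libraries lay just under the lower 3 progenitor libraries, and the log2 fold (-0.65, SE 0.31, edgeR adjusted p = 0.103) was not called. Its alternatives ran from -0.83 to -0.13. With log2 of the postnatal day as a covariate, edgeR called E2f1 (log2 fold -0.77, adjusted p = 0.00854), Cdc6 and Brip1 as well, which gave 29 genes lower.

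The 12 genes with an E2F match in the promoter had a median log2 fold of -1.47, with 11 of 12 lower. The 17 genes with a promoter and no match had a median of -1.02, with 12 lower and 1 higher. The folds of the 2 sets overlapped, from -1.99 to -0.56 and from -2.29 to 0.43, and no test was made of this split. Matches were present in 20 of 64 promoters of other replication genes (31.3%) and in 1 of 25 promoters of mitosis genes (4.0%).

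The median fold was nearer to 0 in the rest of the replication pathway and farther from 0 in the genes of mitosis. Of 82 other replication genes fixed as a list, 49 were lower, 5 were higher (Orc3, Rfc1, Rrm2b, Atr and Rbl2) and 28 did not pass the test, beside 30.0% of all tested genes lower and 28.8% higher. Their median log2 fold was -0.56. On the TPM scales, limma called Rrm2b alone of those 5 higher, and gave log2 values of 0.03 to 0.20 on log2(TPM + 1) for the other 4, with adjusted p from 0.065 to 0.736. Of 29 mitosis genes, 29 were lower, with a median of -2.56. Added over the 29 genes, the mitotic level was 1022, 693, 654 and 615 TPM in progenitors at P3, P7, P9 and P16 and 188, 149 and 89.6 TPM in neurons at P2, P7 and P16. The summed level of the 34 replication genes in the mature neuron libraries, given above, was higher than that of the mitosis genes in each. Among the progenitor libraries it was lower at P3 and, by little, at P7 (684 against 693 TPM). It was higher at P9 (689 against 654 TPM) and at P16 (653 against 615 TPM). The lists differ in size, and Pcna and Slbp, which were not called, make up a large part of the replication sum. They held 105.6 and 66.9 TPM of 460 TPM in P2 neurons, and 82.3 and 50.1 TPM of 333 TPM in P16 neurons.

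**Figure D3:**
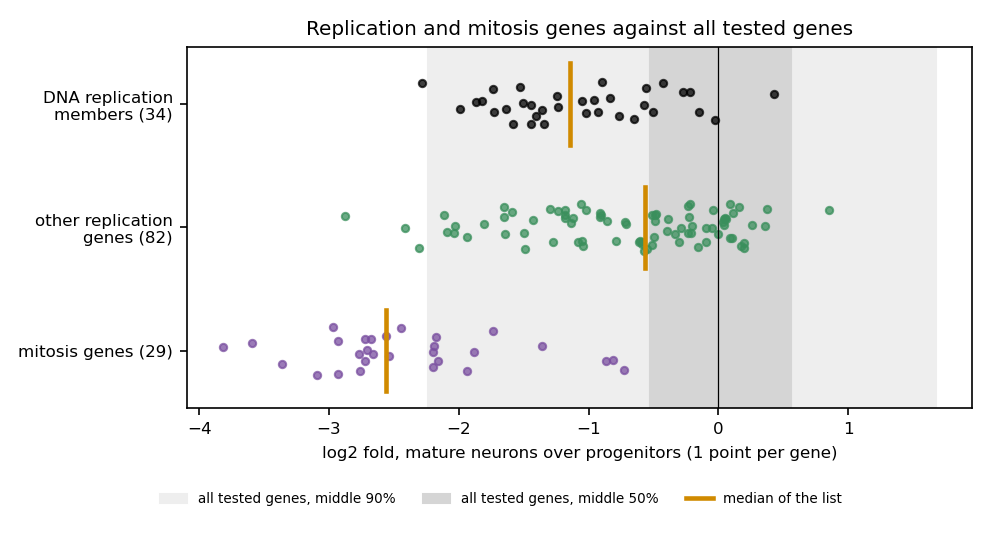
Log2 fold of mature neurons over progenitors for each of the 34 replication genes, 82 other replication genes and 29 mitosis genes (1 point per gene, vertical jitter only). Bars mark each list's median, at -1.14, -0.56 and -2.56, and the shaded bands hold the middle 50% (-0.53 to 0.56) and 90% (-2.24 to 1.68) of all tested genes.

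Among the other replication genes, those for histone supply and chromatin copying were lower throughout, with 8 of 8 called and a median of -1.12. They included Dnmt1, the maintenance methyltransferase (log2 fold -1.05), Nasp, a histone chaperone (-1.28), and Asf1b, a histone chaperone of dividing cells (-2.31). Of 16 origin and licensing genes, 12 were lower and 1 was higher, with a median of -0.70. Mcmbp, which binds the Mcm ring, had a log2 fold of -0.86, Topbp1, a scaffold of origin firing, -1.23, and Orc6, an origin recognition subunit, -0.61. Orc3, another subunit of the origin recognition complex, was higher (0.19). Orc2, a further subunit, had a log2 fold of 0.00 and was not called.

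Of 9 other polymerase genes, 4 were lower and none was higher. Pole3, Prim2 and Pola2, which are accessory and primase subunits, had log2 folds of -1.12, -1.30 and -1.18. Of 12 other clamp and lagging strand genes, 6 were lower and 1 was higher. Rnaseh2a, the catalytic subunit that removes RNA from DNA, went from 122 ± 14.0 TPM (SD, n = 4) to 31.0 ± 4.10 TPM (SD, n = 3), a log2 fold of -1.80. Chtf18, part of an alternative clamp loader, and Rpa3, a subunit of the same binding protein as Rpa2, had log2 folds of -2.09 and -0.91. Rfc1, the large subunit of the clamp loader, was higher (0.38).

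Of 9 other nucleotide genes, 3 were lower, beside 30.0% of all tested genes. They included Dut, which removes dUTP, with a log2 fold of -0.49, and Shmt2, a serine hydroxymethyltransferase of folate metabolism, with -0.55. Rrm2b, the ribonucleotide reductase subunit used outside S phase, was higher in mature neurons. It went from 24.2 ± 1.76 TPM (SD, n = 4) to 36.1 ± 2.23 TPM (SD, n = 3). This was called, at a log2 fold of 0.85 with SE 0.09 (edgeR adjusted p = 0.000101). Rrm2, its S phase counterpart described above, was lower.

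Of 12 other checkpoint and fork genes, 8 were lower and 1 was higher. Wdhd1, which links the helicase to the priming polymerase, had a log2 fold of -1.65, and the repair genes Brca1 and Brca2 had log2 folds of -1.49 and -1.19. Atr, the checkpoint kinase upstream of claspin, was higher (0.26). Of 16 other E2F, pocket protein and cyclin genes, 8 were lower and 1 was higher. E2f2 and E2f7 had log2 folds of -2.03 and -2.41, and Ccna2, the S phase cyclin A, had -2.04. Rbl2, a pocket protein of resting cells, was higher (0.36).

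Age was examined next, since every library is 1 age. With 1 slope shared by the populations, expressed as log2 change per doubling of postnatal day, all 34 genes had a negative slope, beside 51.0% of all tested genes, and the median slope was -0.20. Without the P3 progenitor library 31 slopes were negative. None passed the edgeR test after adjustment, as for all tested genes (0%), and the smallest adjusted p of the 34 genes was 0.0586. At an unadjusted p under 0.05, edgeR gave 25 of the 34 a negative slope, beside 11.2% of all tested genes, and 19 without the P3 progenitor library. DESeq2 called 15 falling and none rising at an adjusted p under 0.05, beside 5.57% and 4.24% of the genes to which it gave an adjusted p. The 15 were Mcm2, Mcm3, Mcm5, Mcm6, Cdc6, Mcm10, Pole, Lig1, Tyms, Chaf1b, Clspn, Dtl, Brip1, E2f1 and E2f8. The outcome of the test therefore depended on the tool.

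In progenitors alone, 33 of 34 slopes were negative, beside 51.0% of the 16625 genes tested there, with a median of -0.23. No gene passed edgeR's adjusted test, and 23 had an unadjusted p under 0.05 in the falling direction (8.10% of all). DESeq2 called 3, Mcm2, Mcm3 and Cdc6, falling and none rising, beside 1.71% and 0.933% of the genes to which it gave an adjusted p. Without the P3 library, 25 slopes were negative, the median was -0.08 and 1 gene had an unadjusted p under 0.05 in edgeR. In CPM, the P16 library was the lowest of the 4 for 22 genes, beside 27.0% of all tested genes. Hells had a slope of 0.00 and Pola1 of -0.01 in progenitors, against -0.71 for Cdc6 and -0.66 for Brip1.

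The slope in mature neurons comes from a fit of all 7 libraries with a slope for each population, so the spread is shared with the progenitors and 3 residual degrees of freedom remain, against 2 in the fit of progenitors alone. It was negative for 29 of 34 genes, beside 51.3% of all tested genes, with a median of -0.22. No gene passed edgeR's adjusted test, and 18 had an unadjusted p under 0.05 in the falling direction (9.39% of all). DESeq2 called 8 falling and none rising, beside 2.82% and 2.72% of the genes to which it gave an adjusted p. Those 8 were Mcm2, Mcm3, Mcm5, Mcm6, Hells, Clspn, Dtl and Brip1. Without the P16 neuron library 34 slopes were negative, the median was -0.14 and no gene had an unadjusted p under 0.05 in edgeR. Without the P2 neuron library 25 were negative and the median was -0.50. This slope was added after the values had been seen. In CPM, the level went down at each step from P2 to P7 to P16 for 25 of the 34 genes, beside 25.0% of all tested genes. For the same number P16 was the lowest of the 3 in CPM, beside 41.7%. For Brip1, Gins2, Mcm2, Clspn and Dtl, the P16 library held 12.5%, 16.8%, 18.7%, 20.9% and 22.7% of the P2 level in TPM. The shares depended on the scale. In CPM, the P2 and P16 levels were 2.743 and 0.513 for Brip1, 3.038 and 0.898 for Gins2, and 17.47 and 5.774 for Mcm2. They were 3.165 and 0.77 for Clspn, and 7.005 and 1.583 for Dtl.

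Another set of genes was lower in neurons at every age and nearly flat across the 3 ages. In TPM, the P16 neuron library held 107% of the P2 level for Rpa2, 96.9% for Rfc4, 96.5% for Cdc45, 94.5% for Rrm2, 87.9% for Fen1, 87.4% for Rfc3 and 86.8% for Mcm7. Chaf1a, which was higher in neurons, had the largest share of the 34 genes, 116%. These sets were named after their values were seen and were not tested against each other.

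**Figure D4:**
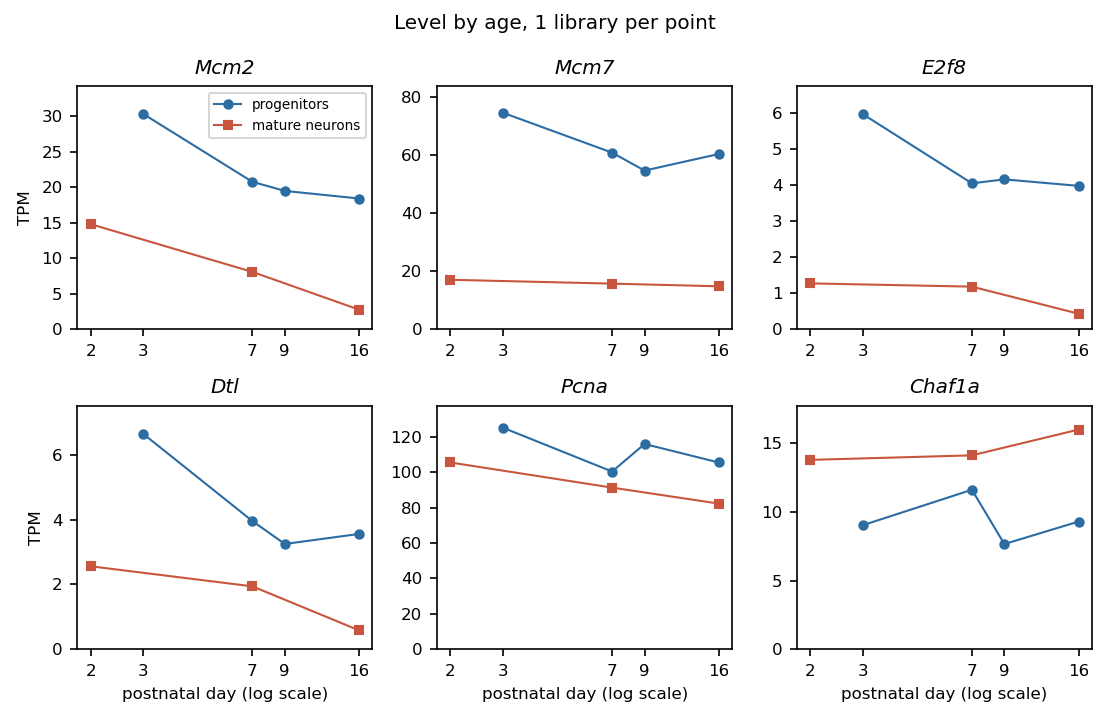
TPM of 6 of the 34 genes against postnatal day (log scale), with 1 library per point, progenitors as circles and mature neurons as squares. Mcm2 and Dtl were lowest in the P16 neurons, Mcm7 was nearly flat in neurons, Pcna overlapped between populations and Chaf1a was higher in neurons.

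The difference of slopes between populations was tested directly, and no gene passed in edgeR after adjustment (0% of all tested genes), where the smallest adjusted p of the 34 genes was 0.806. At an unadjusted p under 0.05, edgeR gave 1 gene, Hells, with a steeper negative slope in neurons (difference -0.28, beside 2.85% of all tested genes). DESeq2 called none of the 34 in either direction, beside 0.0375% lower and 0.0657% higher of the genes to which it gave an adjusted p. The difference of slopes was negative for 16 of the 34 genes, beside 50.8% of all tested genes, and its median was 0.01. Without the P3 progenitor library it was negative for 25 genes (median -0.11), beside 48.7% of all tested genes. Without the P16 neuron library it was negative for 7 (median 0.09), beside 48.8%. In both fits none of the 34 genes had an unadjusted p under 0.05 in the negative direction. Without the P2 neuron library 7 of the 34 had one in the negative direction and 1 in the positive direction. Of all 18394 genes tested in that fit, 2262 had one in either direction. There, 20 of the 34 differences were negative (median -0.20), beside 52.8% of all tested genes. At matched ages, the median log2 difference in CPM over the 34 genes, neurons minus progenitors, was -1.04 at P7 and -1.25 at P16, with 31 and 33 genes negative. Over all 17975 tested genes the medians were -0.01 and 0.00 with 0.5 added to each CPM, and 9072 and 9044 genes were negative. Each of these is 1 library against 1 library and has no replicate check.

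**Figure D5:**
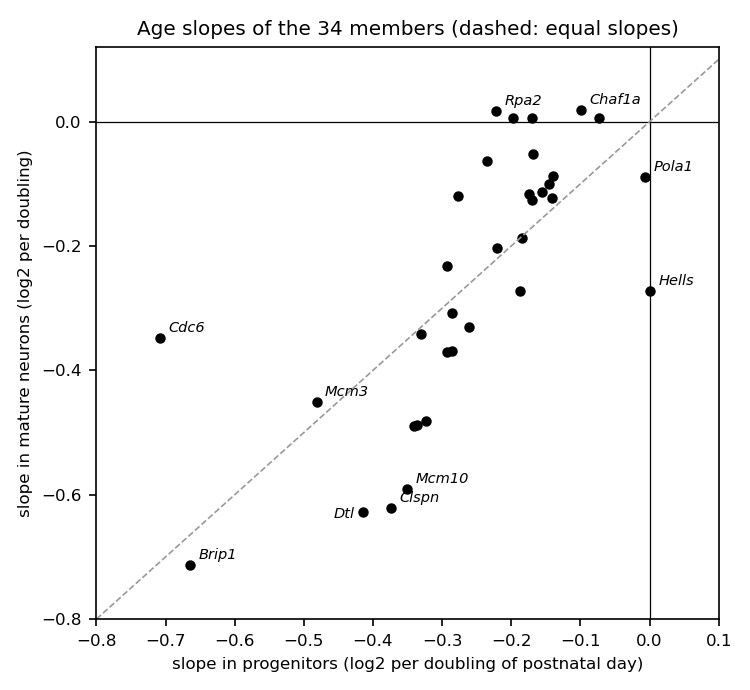
Slope with age of each of the 34 genes in mature neurons (vertical axis) against progenitors (horizontal axis), in log2 units per doubling of postnatal day. Most points lie below 0 on both axes. Hells and Pola1 lie near 0 in progenitors, and the dashed line marks equal slopes.

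Markers of other cells moved with age in the same libraries, and their part in these slopes or in the difference between populations was not tested. All 29 mitosis genes had negative slopes in neurons, beside 51.3% of all tested genes. For the counts of called markers that follow, 28.8% of all tested genes were higher in neurons and 30.0% were lower. The summed level of 11 basal progenitor markers was 170, 193 and 111 TPM in neurons at P2, P7 and P16. In progenitors it was highest at P3, at 2323, 1815, 1721 and 1647 TPM at P3, P7, P9 and P16. Leukocyte markers (12 genes, 11 tested, 9 higher in neurons) summed to 53.5, 37.5 and 156 TPM in neurons and to between 15.2 and 38.9 TPM in progenitors. Erythroid markers (6 genes, 5 tested, 1 higher) summed to 369, 439 and 3027 TPM in neurons and to between 192 and 1362 TPM in progenitors. Sustentacular markers (8 genes, 4 higher) summed to between 3312 and 4108 TPM in neurons and to between 2004 and 3206 TPM in progenitors. Horizontal basal cell markers (6 genes, none called) summed to at most 18.4 TPM in any library. Endothelial and fibroblast markers (10 genes, 8 tested, 3 higher) summed to 76.5, 71.0 and 110.2 TPM in neurons and to between 47.5 and 67.1 TPM in progenitors. Ensheathing glia markers (7 genes, 5 higher, 1 lower) summed to 41.7, 58.1 and 84.9 TPM in neurons and to between 41.1 and 54.0 TPM in progenitors. Most of the progenitor sum was Mbp, the 1 lower gene. Mbp lay between 30.2 and 37.5 TPM in progenitors and between 8.95 and 10.7 TPM in neurons. No marker of these lists was listed at 0 TPM in any library.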

How the data were processed

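Per the labels' protocols, cells were sorted by FACS, RNA came from TRIzol extraction and libraries from a stranded poly(A) kit. Tools named in the submitters' processing notes are STAR 2.6.1c, bcl2fastq 2.18 and RSEM, with build mm10; annotation release and strand setting: not given in the sources used here. Deposited by the authors were whole-number read counts per gene and a table of TPM values. Entries that name no gene took 23.5% to 27.2% of the deposited counts and were left out. All value columns matched a library.

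Populations were compared with edgeR 4.0.16 in R 4.3.3 (quasi-likelihood test, TMM scaling, filterByExpr, Benjamini-Hochberg adjustment over all tested genes, threshold 0.05) on 3 mature neuron and 4 progenitor libraries. Age slopes used log2 of the postnatal day. Residual degrees of freedom were 5 for population, 4 for the shared slope, 3 for the interaction and 2 for progenitors alone. Standard errors were derived from the fold and the F statistic. In simulated counts for the population test, 30% of genes changed by 0.5 and 80% of genes changed by 1 on the log2 scale were recovered, with 9 false calls. The simulation changed 100 genes at each size among 17975, far fewer than were called in the data, and gave every gene the same dispersion. Its recovery is therefore not that of the test on the data.

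Alternatives were DESeq2 1.42.0, its size factors in edgeR, no filter on low counts, limma 3.58.1 on log2(TPM + 1) and log2(TPM + 0.1), each library left out in turn, P7 and P16 with age as a block, and postnatal day as a covariate. The slope within mature neurons, and the fit without the P16 neuron and P3 progenitor libraries, were added after seeing the data.

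Values by library are given for the called genes with the largest and smallest fold of each role group and for each gene not called; Mcm2, Gins1, Tyms and Chaf1b were added after their values were seen. None of the 34 genes had a fold that differed by more than 1 on the log2 scale between counts and TPM. Of each other replication list, up to 3 called genes with the smallest p and each gene called against the majority are named, and Orc2 was chosen after its value was seen. A gene that this rule takes is not reported here. The members and lists were chosen with earlier results of these data known. In GENCODE M21 (GRCm38), which matched 54409 of 54532 identifiers, exons of 10 of the 34 genes overlap an opposite-strand gene: Mcm7, Cdc45, Gins2, Pole, Rfc4, Fen1, Lig1, Chaf1a, Slbp and E2f8. Promoters come from RefSeq.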

Additional observations from a re-analysis of the deposited data

Results flagged for a closer look

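In the 4 progenitor libraries, 7 of the 34 genes had 1 library whose gap to the nearest other was large against the whole range of the group, above Dixon's 95% critical value for 4 values. In each of the 7 it was the P3 library, and it was high. The levels there were 23.7 TPM for Mcm5, 3.92 TPM for Cdc6, 36.8 TPM for Rfc4, 28.7 TPM for Tyms, 71.9 TPM for Slbp, 24.5 TPM for E2f1 and 5.96 TPM for E2f8. Chance alone marks about 1 in 20 such groups, and the 7 genes share 1 library, so they are not independent. The check was run on the 34 genes only. Whether a similar share of all tested genes would be flagged was not tested. P3 is the youngest progenitor age and has 1 library, so its age and the library itself cannot be told apart.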

How the results depend on the processing

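The number of genes lower in mature neurons was 26 and lay between 24 and 29 over all alternatives, and between 24 and 25 when 1 library was left out; Chaf1a was the 1 gene higher in each. With P7 and P16 only and age as a block it was 26. The ages pair the libraries only by day, and no replicate numbers are given. No direction of a called gene reversed. Of the 26, Cdc45 and Dtl lost their call in 7 and 6 of 15 alternatives, and of the uncalled genes Brip1 gained a call in 2, Cdc6 in 1 and E2f1 in 1. The number of genes called with a falling age slope was 0 in edgeR and 15 in DESeq2. It was 8 without a filter on low counts, beside 455 of all 32706 genes tested there. When 1 library was left out it was 0 to 15. The 15 were reached without the P7 mature neuron library, beside 619 of all 18436 genes tested there. Within progenitors the number called falling was 0, with 3 in DESeq2. It was 3 without a filter, beside 249 of all 30871 genes tested there. When 1 library was left out it was 0 to 2. The 2 were reached without the P7 library, beside 129 of all 16786 genes tested there. Within mature neurons the number called falling was 0, with 8 in DESeq2 and 0 to 8 when 1 library was left out. The 8 were reached without the P7 neuron library, beside 525 of all 18436 genes tested there. The cause of these differences was not tested. The difference of slopes gave 0 called genes in each alternative run. The widest standard errors were those of Brip1, Dtl and Mcm10 (0.55, 0.47 and 0.46), which average under 2 TPM in neurons. With 1 library per age, no statement on age has a replicate.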
